A study of Mus musculus with 6 samples.

Results

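The ZFP36 family of mRNA decay factors, the BTG genes, the IER genes and PHLDA1 were examined in PA6 stromal cells exposed for 3 h to FGF2 or BMP4. The genes were chosen by symbol, with earlier results of these data known, so that counts among them are a description and not a test. Every probe annotated as ZFP36, ZFP36L1, ZFP36L2, IER2, IER3, IER5, BTG1, BTG2 or PHLDA1 was taken. This gave 12 probes of the 45281 on the array, for 9 of its 30854 gene names. FGF2 raised the mRNAs of 3 of the 9 genes, IER3 by 5.75-fold, PHLDA1 by 3.78-fold and ZFP36 by 2.38-fold, where 3.53% of all genes tested were called. With BMP4 none of the 9 was called, where 0.00842% of all genes were.

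PA6 is a murine stromal cell line, so that all arrays hold RNA of 1 line and not of different animals. Confluent monolayers were kept for 3 h in serum-free medium that held no growth factor (-GFs), recombinant FGF2 at 20 ng/ml, or recombinant BMP4 at the 10 ng/ml of the labels (the study's methods on co-cultures give a lower dose). No genetic change was introduced and no ES cells were present. Each biological replicate was a set of 3 wells, 1 per group, and each of the 3 groups had 2 arrays (Illumina MouseWG-6 v2.0 BeadChip).

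The median intensity of the arrays was between 153.4 and 168.1, and between 15509 and 16459 probes were detected at a detection p under 0.05. All 8 stromal and fibroblast markers examined (COL1A1, COL1A2, COL3A1, PDGFRA, PDGFRB, THY1, VIM and CXCL12) were detected on all 6 arrays, and none of 6 leukocyte markers on any. Of the other markers, TEK among 6 of endothelial cells, CDH1 among 4 of epithelial cells and POU5F1 among 4 of ES cells were detected on every array. Their signals were dim, with log2 intensities of 7.66 to 8.47, 7.64 to 7.85 and 7.66 to 7.97. KDR, another endothelial marker, was detected on 4 of the 6 arrays, with log2 intensities of 7.29 to 8.06. PECAM1, CDH5, TIE1, ICAM2, EPCAM, KRT8, KRT18, NANOG, SOX2 and ZFP42 were undetected on all arrays. Of 4 neuron markers 3 were on the array, and none of these was detected on every array. Adipocyte markers differed between the replicate numbers. The summed intensity of 5 of them lay between 751.9 and 858.4 on the arrays of replicate 1 and between 2643.8 and 3681.2 on those of replicate 2, in all 3 groups alike. Replicate 1 had between 0 and 2 of these markers detected, and replicate 2 had 3 or 4.

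Proteins of the ZFP36 family bind AU-rich elements in the untranslated tail of short-lived mRNAs, many of which encode cytokines and growth regulators, and recruit the CCR4-NOT complex, which removes the poly(A) tail and starts decay. BTG1 and BTG2 are antiproliferative proteins that bind the deadenylase subunits of that complex. IER2, IER3 and IER5 are immediate early response genes, transcribed soon after a stimulus without new protein synthesis, and PHLDA1 is a growth factor-inducible gene of the pleckstrin homology-like family. FGF2 signals through receptor tyrosine kinases and the ERK cascade, which acts on serum response factor and its ETS partners at immediate early promoters, whereas BMP4 signals through serine/threonine kinase receptors and SMAD proteins.

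The sequences just before the RefSeq start are shown for a pair of genes that rose with FGF2 (ZFP36 and IER3) and for a pair of bright genes that were not called (ZFP36L1 and BTG1), so that the letters near their starts can be set beside the responses. The RefSeq promoter table (GRCm38.p6) held 6 of the 9 genes, without ZFP36L2, IER2 and PHLDA1. Each sequence is the 250 bases before the start, 5′ to 3′ on the strand of the gene, and capitals mark motif matches on either strand. They come from chr7:28379229-28379478 (minus strand) for ZFP36, chr17:35821463-35821712 (plus) for IER3, chr12:80113014-80113263 (minus) for ZFP36L1 and chr10:96616751-96617000 (plus) for BTG1.
ZFP36: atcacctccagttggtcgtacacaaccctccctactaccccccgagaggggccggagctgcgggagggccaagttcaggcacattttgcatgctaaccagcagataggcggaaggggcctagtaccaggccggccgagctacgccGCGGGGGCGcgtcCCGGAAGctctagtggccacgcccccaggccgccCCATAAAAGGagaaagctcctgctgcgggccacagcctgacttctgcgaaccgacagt
IER3: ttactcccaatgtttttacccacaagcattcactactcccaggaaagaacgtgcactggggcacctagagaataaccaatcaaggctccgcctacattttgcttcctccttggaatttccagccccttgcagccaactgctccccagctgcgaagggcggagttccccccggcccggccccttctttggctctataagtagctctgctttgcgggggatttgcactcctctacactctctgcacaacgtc
ZFP36L1: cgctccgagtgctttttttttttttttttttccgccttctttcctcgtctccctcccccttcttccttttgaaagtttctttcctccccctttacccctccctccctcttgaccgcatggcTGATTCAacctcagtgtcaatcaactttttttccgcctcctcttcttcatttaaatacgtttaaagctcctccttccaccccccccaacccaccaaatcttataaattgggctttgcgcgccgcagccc
BTG1: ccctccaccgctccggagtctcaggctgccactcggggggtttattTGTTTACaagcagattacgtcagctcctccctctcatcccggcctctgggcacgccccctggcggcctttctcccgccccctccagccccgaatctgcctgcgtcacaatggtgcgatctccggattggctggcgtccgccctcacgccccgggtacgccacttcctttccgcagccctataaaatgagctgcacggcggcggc

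The motifs searched were the CArG box of serum response factor, the EGR sites GCGTGGGCG and GCGGGGGCG, the cyclic AMP response element TGACGTCA, the AP-1 site TGANTCA, the ETS site CCGGAAG and the FOXO site TGTTTAC, and they were chosen with these promoters in view. ZFP36 had a match to the CArG box at bases 58 to 49 before the start, to the ETS site at bases 92 to 86 and to the EGR site GCGGGGGCG at bases 105 to 97, none overlapping another. IER3 and IER5 had no match to these letters in the window. ZFP36L1 had an AP-1 match at bases 129 to 123, BTG1 a FOXO match at bases 204 to 198, and BTG2 a match to TGACGTCA at bases 166 to 159. Among 32851 promoter windows of the same length, the CArG box occurred in 1.47%, GCGTGGGCG in 0.536%, GCGGGGGCG in 2.57%, TGACGTCA in 1.55%, the AP-1 site in 6.75%, the ETS site in 6.91% and the FOXO site in 3.17%. A match is a description of the letters only, and binding was not measured.

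Of the 9 genes, 6 had a probe above detection on the whole of 1 group or more and entered the test with 11872 genes in all. IER5 and BTG2 were undetected on all 6 arrays, and IER2 was detected on 1. A gene was called at an absolute log2 difference over 1 and an adjusted p under 0.1, from limma, adjusted after Benjamini and Hochberg for all genes in the test. With FGF2 against -GFs, 3 of the 6 genes were called, all higher, where 3.53% of all genes tested were called and 2.28% were called higher. Of all calls, 64.7% were rises, a share that was 54.4% with neqc (another background correction and normalization) and 49.9% with arrays scaled only to a common median, and ZFP36, IER3 and PHLDA1 were called higher under each. The median log2 difference was 0.62 over the 6 genes and -0.021 over all genes. ZFP36L2 is among the 6 only through its BMP4 arrays, so that the 6 are not the whole family. Of BMP4 against -GFs, 0 of the 6 were called, where 1 gene or 0.00842% of all genes was called (also 0.00842% without the threshold on the fold). None of the 6 had an unadjusted p under 0.05 there in limma, and the methods' t-test called 0. With FGF2 against BMP4, 3 of the 6 were called, all higher with FGF2, where 3.07% of all genes were called and 2.03% were called higher. The comparisons share arrays, the -GFs arrays serving both factors, and are therefore not independent of each other.

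**Figure D1:**
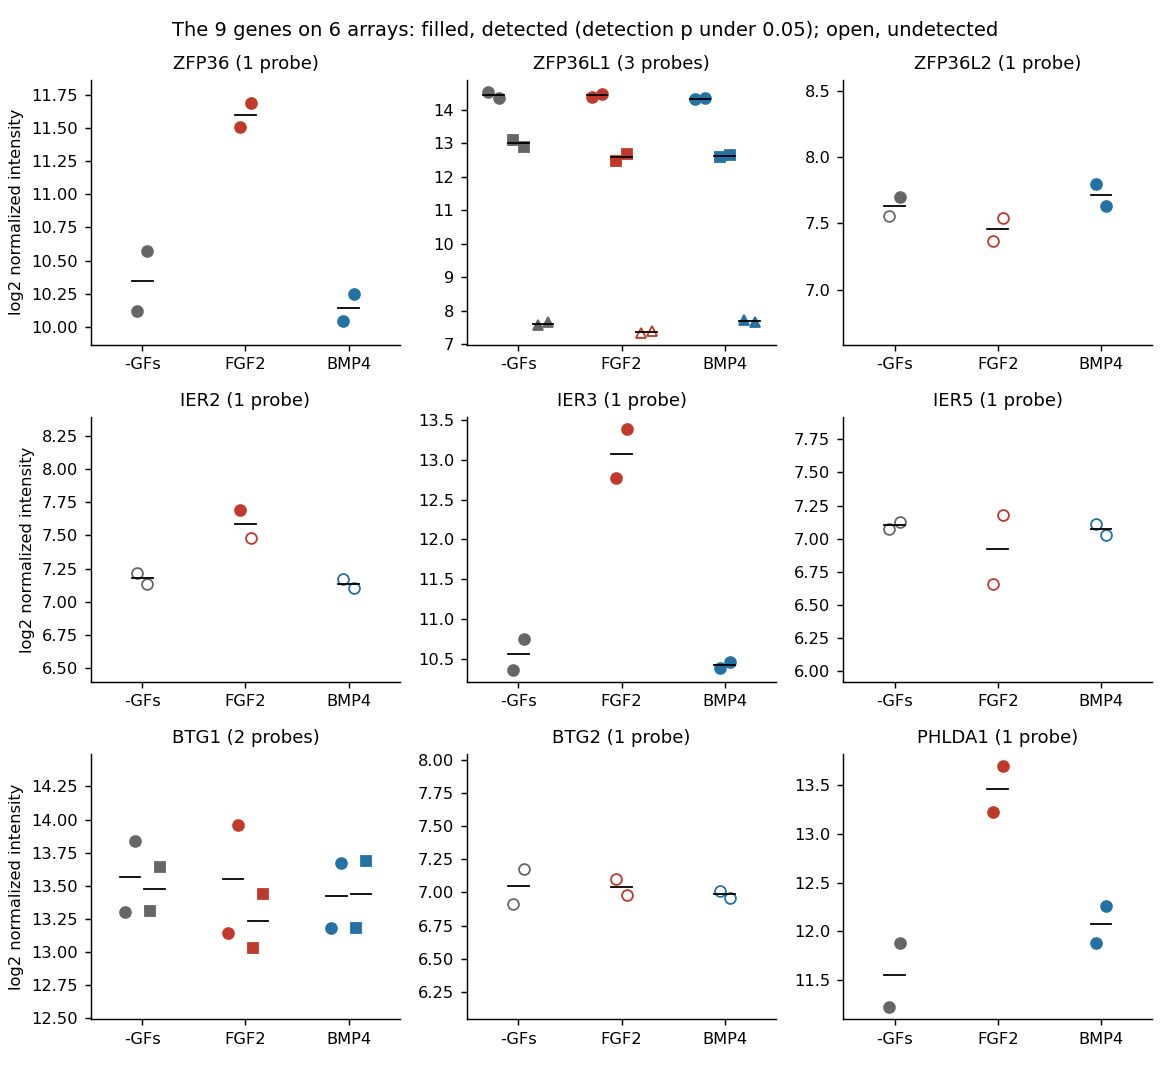
Normalized log2 intensity of every probe of the 9 genes on each array, in a panel per gene and a column per group, with a bar at the mean of the 2 arrays (circles, squares and triangles are different probes of 1 gene, open symbols undetected). For ZFP36, IER3 and PHLDA1 both FGF2 points stand above all points of the other groups, with means of 11.60, 13.08 and 13.47.

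ZFP36 encodes tristetraprolin, the founding member of the family and itself an immediate early gene. Its log2 intensity was 10.12 and 10.57 in -GFs medium, 11.51 and 11.69 with FGF2, and 10.04 and 10.25 with BMP4. Both FGF2 arrays stood above all the others, and the BMP4 arrays overlapped with those in -GFs medium. ZFP36 rose with FGF2 by 1.25 on the log2 scale, from 10.35 ± 0.32 to 11.60 ± 0.13 (SD, n = 2; standard error of the difference 0.20, 95% confidence interval 0.78 to 1.72, limma adjusted p = 0.0202). Within the same replicate number the difference was 1.38 and 1.12. The call was lost without FGF2 replicate 1 (1.34, adjusted p = 0.120) or FGF2 replicate 2 (1.16, adjusted p = 0.178). With BMP4 it changed by -0.20 (95% confidence interval -0.67 to 0.27, adjusted p = 0.999), an interval that leaves room for a change in either direction. Set directly against BMP4, ZFP36 was 2.74-fold higher with FGF2 (log2 difference 1.45, 95% confidence interval 0.98 to 1.92, adjusted p = 0.0146), a call likewise lost without FGF2 replicate 1 (1.54, adjusted p = 0.106) or replicate 2 (1.36, adjusted p = 0.161).

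ZFP36L1, a paralog with the same pair of zinc fingers, has 3 probes on the array. The brightest (ILMN_2780424), which represents the gene, read 14.54 and 14.35 in -GFs medium, 14.39 and 14.47 with FGF2, and 14.32 and 14.34 with BMP4. The FGF2 arrays lay between the -GFs arrays, and both BMP4 arrays were slightly below all the others. The difference was -0.0081 with FGF2 (95% confidence interval -0.36 to 0.34, adjusted p = 0.983), -0.11 with BMP4 (-0.46 to 0.24) and 0.10 between FGF2 and BMP4 (-0.25 to 0.45). In both comparisons with FGF2, a rise of the size seen for ZFP36 lies outside the interval. The second probe (ILMN_1247853) did not move in step with it. It read 13.11 and 12.89 in -GFs medium, 12.47 and 12.69 with FGF2, and 12.60 and 12.66 with BMP4. Both treated groups were lower than both -GFs arrays, by 0.41 for FGF2 (log2 difference -0.41, standard error 0.16, 95% confidence interval -0.80 to -0.031) and by a similar amount for BMP4 (-0.36, -0.75 to 0.020), without passing the adjusted p over 16111 probes (0.190 for FGF2). The third, dim probe (ILMN_2427108) read 7.56 and 7.66 in -GFs medium, 7.34 and 7.39 with FGF2, where it was undetected on both arrays, and 7.71 and 7.66 with BMP4. Its level in FGF2 is therefore a bound, and taken at that bound it was 1.02-fold below -GFs and 1.07-fold below BMP4. The 95% confidence intervals of the fitted log2 differences include 0 (-0.59 to 0.087 and -0.65 to 0.017, adjusted p = 0.349 and 0.269 over all probes). Where the probes lie in the transcript was not analysed here.

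ZFP36L2, the third gene of the family here, was near the detection limit throughout. Its probe read 7.56 and 7.70 in -GFs medium, 7.37 and 7.54 with FGF2, and 7.80 and 7.63 with BMP4, and was detected on 1, 0 and 2 arrays of these groups. The FGF2 arrays were the lowest pair, and the higher of them came close to the lower -GFs array. Since both FGF2 arrays were below detection, the level there is a bound. Taken at that bound it was 1.03-fold below -GFs, where only 1 array was detected, and 1.09-fold below BMP4. The fitted differences had intervals that include 0, for FGF2 against -GFs (-0.17, 95% confidence interval -0.54 to 0.20, adjusted p = 0.564) and against BMP4 (-0.26, -0.63 to 0.11, adjusted p = 0.398). A fall was therefore not established. With BMP4 against -GFs the difference was 0.089 (95% confidence interval -0.28 to 0.46). Of the 3 ZFP36 family genes, ZFP36 was the only one called with FGF2, but a test of its change against those of its paralogs was not made, since each gene is read by its own probe. In bulk RNA a change in the share of cells that carry an mRNA and a change in its amount per cell cannot be told apart.

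The IER genes encode short proteins made early after stimulation. IER3 modulates survival and ERK signalling and is itself a reported target of ZFP36. Its log2 intensity was 10.36 and 10.75 in -GFs medium, 12.77 and 13.39 with FGF2, and 10.38 and 10.46 with BMP4. The FGF2 arrays stood far above the rest, and the BMP4 arrays lay within the range of -GFs. IER3 rose by 2.52 on the log2 scale, from 10.55 ± 0.27 to 13.08 ± 0.44 (SD, n = 2; standard error 0.24, 95% confidence interval 1.95 to 3.10, limma adjusted p = 0.00666), with 2.40 and 2.64 in the 2 replicate sets. It was the largest change among the 9 genes, and as a scale EGR1 had the largest rise of all genes (4.19) and 9430052C07RIK the largest fall (-3.20). The call was kept with each array left out (2.21 to 2.83, adjusted p at most 0.0665). With BMP4 the difference was -0.14 (95% confidence interval -0.71 to 0.44), and FGF2 exceeded BMP4 by 6.32-fold (log2 difference 2.66, adjusted p = 0.00474).

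IER2, a nuclear protein of the same class, read 7.22 and 7.13 in -GFs medium, 7.69 and 7.48 with FGF2, and 7.17 and 7.10 with BMP4. Both FGF2 values were the highest of the 6, but only FGF2 replicate 1 was detected (detection p 0.0214, against 0.0962 for replicate 2). The gene did not pass the detection filter, and the bound on its change lies under 1-fold, so that no fold is given. When all 30854 genes were tested without the filter, its difference was 0.41 (standard error 0.13, adjusted p = 0.185) for FGF2 against -GFs and 0.45 (adjusted p = 0.165) for FGF2 against BMP4. IER5 read 7.07 and 7.13 in -GFs medium, 6.66 and 7.18 with FGF2, and 7.11 and 7.03 with BMP4, none of them above background. Of the IER genes, only IER3 was therefore read above background on every array, and changes of the other two could not be measured at their signal.

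BTG1 was bright on every array and was read by 2 probes. The brighter (ILMN_2866189) read 13.30 and 13.84 in -GFs medium, 13.14 and 13.96 with FGF2, and 13.18 and 13.67 with BMP4. The 3 groups overlapped, and the widest gaps were those within groups. The difference was -0.021 with FGF2 (standard error 0.33, 95% confidence interval -0.80 to 0.76, adjusted p = 0.980), -0.15 with BMP4 (-0.93 to 0.63) and 0.13 between the factors (-0.65 to 0.91). Replicate 2 exceeded replicate 1 by 0.54 in -GFs medium, 0.82 with FGF2 and 0.49 with BMP4. Within the replicate sets the FGF2 difference was -0.16 and 0.12. The second probe (ILMN_2866185) read 13.31 and 13.64, 13.03 and 13.44, and 13.18 and 13.69 in the same order of groups, a difference of -0.24 for FGF2 against -GFs (95% confidence interval -0.81 to 0.33, adjusted p = 0.609 over all probes). BTG2, a p53-inducible paralog, was undetected on all arrays, with 6.91 and 7.18 in -GFs medium, 7.10 and 6.98 with FGF2, and 7.01 and 6.96 with BMP4.

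PHLDA1 is linked to the control of apoptosis and growth. Its log2 intensity was 11.22 and 11.88 in -GFs medium, 13.23 and 13.70 with FGF2, and 11.88 and 12.26 with BMP4. Both FGF2 arrays stood above all others, and the lower BMP4 array reached the level of the higher -GFs array. PHLDA1 rose with FGF2 by 1.92 on the log2 scale, from 11.55 ± 0.46 to 13.47 ± 0.33 (SD, n = 2; standard error 0.28, 95% confidence interval 1.26 to 2.58, limma adjusted p = 0.0160), with 2.01 and 1.83 in the replicate sets. The call was lost without FGF2 replicate 2 (1.68, adjusted p = 0.151). With BMP4 it had the largest difference of the 6 genes, 0.52 (1.44-fold, 95% confidence interval -0.14 to 1.18, adjusted p = 0.999), higher in both replicate sets (0.66 and 0.39) but short of the call, also with the replicate number as a block (adjusted p = 0.237). FGF2 exceeded BMP4 by 2.63-fold (log2 difference 1.39, 95% confidence interval 0.73 to 2.05, adjusted p = 0.0416). This call was lost without FGF2 replicate 1 (1.63, adjusted p = 0.152), FGF2 replicate 2 (1.16, 0.282), BMP4 replicate 1 (1.20, 0.162) or BMP4 replicate 2 (1.58, 0.109).

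**Figure D2:**
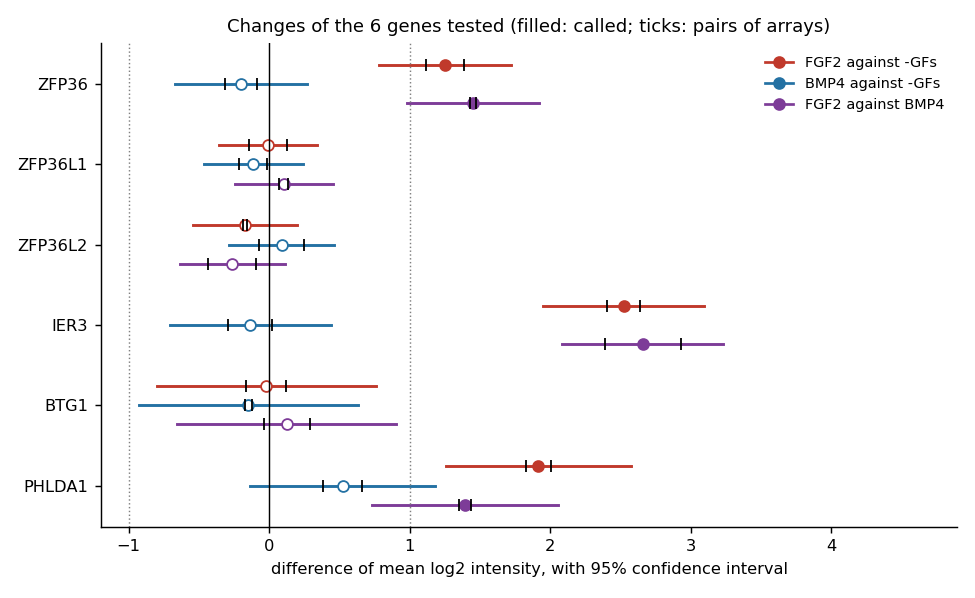
Difference of the mean log2 intensity of the 6 genes tested in the 3 comparisons, with limma's 95% confidence interval as a line, the 2 replicate sets as ticks and called genes filled. The intervals of ZFP36, IER3 and PHLDA1 lie above 0 in both comparisons with FGF2, while all 6 intervals of BMP4 against -GFs cross 0.

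The same 3 genes, and BTG1, also read higher in replicate 2 than in replicate 1 in all 3 groups. The replicate difference was 0.45, 0.18 and 0.22 for ZFP36, 0.38, 0.62 and 0.077 for IER3, and 0.65, 0.47 and 0.38 for PHLDA1 in -GFs medium, FGF2 and BMP4. These differences were smaller than the rises with FGF2, which appeared in each replicate set. The adipocyte marker ADIPOQ moved with the replicate number as well, from 7.24, 7.30 and 7.29 in replicate 1 to 11.33, 10.77 and 11.16 in replicate 2. Its part in the replicate differences was not tested.

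**Figure D3:**
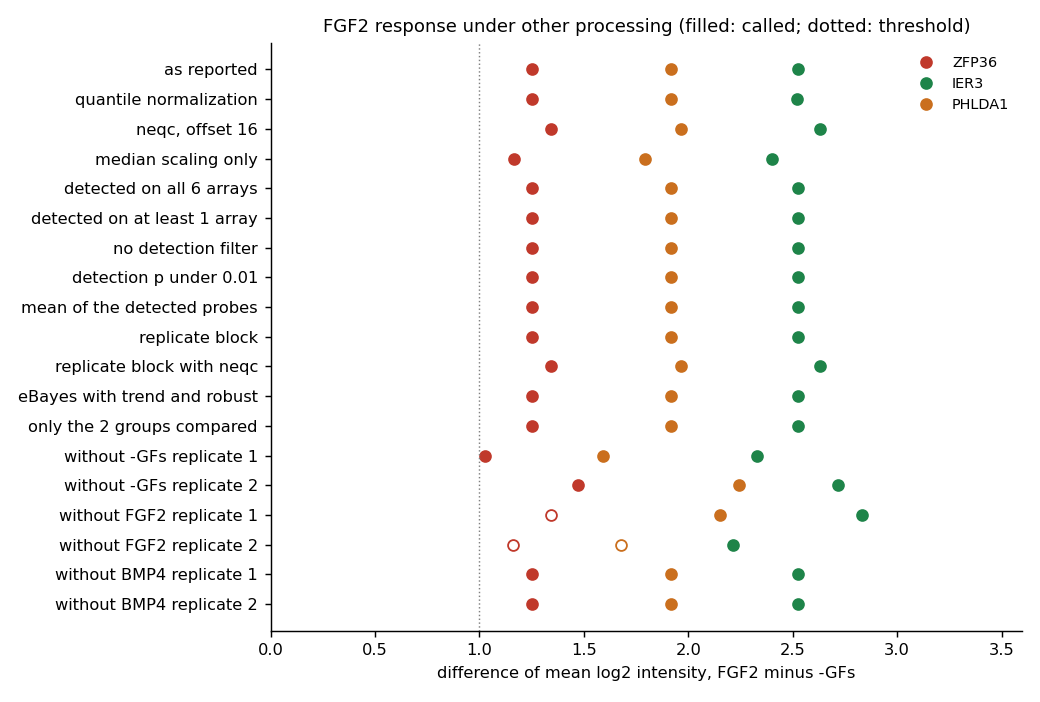
Log2 difference of FGF2 against -GFs for ZFP36, IER3 and PHLDA1 (x axis) under the reported processing and the limma alternatives (rows; the methods' t-test, which called none of them after adjustment, is not drawn), filled where the gene was called and with the fold threshold dotted. IER3 is filled in every row, between 2.21 and 2.83, while ZFP36 is open without FGF2 replicate 1 or 2 and PHLDA1 without FGF2 replicate 2.

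The genes whose levels followed each gene most closely over the 6 arrays are given as a description, since all arrays carry the FGF2 difference and the replicate difference together. For ZFP36 they were TTYH2 and RGS16 (Pearson's r of 0.999 and 0.998, n = 6 arrays), with 305 genes above 0.95. For IER3 they were C630022N07RIK and PLOD3 (0.998 for both, with 367 genes above 0.95), and for PHLDA1 FMNL3 and HNRNPC (0.999 and 0.998, with 248 genes). For genes without a called change the neighbours were fewer. BTG1 was closest to ANGPTL4 and EIF3EIP (0.992 and 0.983, with 39 genes above 0.95), ZFP36L1 to TNFAIP8L2 and ISG20 (0.974 and 0.956, with 2 genes), and ZFP36L2 to 4732426B21RIK and NCSTN (0.979 and 0.972, with 15 genes).

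The mRNA decay machinery with which these proteins work was described by gene lists. In FGF2 against -GFs, 11.8% of all genes passed the adjusted p whatever the fold, and 37.7% did so once the replicate number was added as a block, and the lists are set beside these shares. Of 14 deadenylase genes (those of CCR4-NOT and PAN, and the separate PARN) 11 were tested, and 0 passed (5 of 11 with the block). Their median log2 difference was 0.074, with a range of -0.45 to 0.44. CNOT7, a catalytic subunit to which BTG proteins bind, had 0.41 (adjusted p = 0.400, or 0.0607 with the block), CNOT1, the scaffold, 0.11 and PAN2 (USP52 on the array) -0.45 (adjusted p = 0.163, or 0.0238 with the block). Of 20 genes of decapping and exonucleolytic decay 16 were tested and 1 passed, with a median of 0.21 (0.18 with a gene known only as a bound at that bound). This was DCPS, the scavenger decapping enzyme, which fell by 0.66 on the log2 scale (adjusted p = 0.0625), and with the block 5 of 16 passed. DIS3, 1 of these 5, entered the test through the FGF2 arrays alone. Without the block, DCPS no longer passed without -GFs replicate 1 (adjusted p = 0.104), -GFs replicate 2 (0.213), FGF2 replicate 1 (0.285) or FGF2 replicate 2 (0.251).

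Among 11 other proteins that bind AU-rich elements or the tails of mRNAs, all tested, 1 passed (5 with the block) and the median was 0.26, or 0.23 with that gene at its bound. It was RC3H1 (Roquin-1), detected on the FGF2 arrays alone and at least 1.16-fold higher than in -GFs medium (adjusted p = 0.0943). It entered the test through the FGF2 arrays alone and did not pass with any 1 of the 6 arrays left out (adjusted p from 0.136 to 0.384). ZC3H12A, the endonuclease regnase-1, had the largest difference (0.90, standard error 0.43) but did not pass without the block (adjusted p = 0.266, or 0.000637 with it), and PUM2 had 0.65 (adjusted p = 0.167, or 0.00357 with the block). ELAVL1 (HuR), a stabilizing protein that competes for AU-rich elements, had 0.34 (adjusted p = 0.351, or 0.0880 with the block). Of 8 paralogs of the 9 genes 6 were tested and 1 passed, TOB2, a relative of the BTG proteins, which fell by 0.77 on the log2 scale (adjusted p = 0.0435). It did not pass without FGF2 replicate 1 (adjusted p = 0.225), FGF2 replicate 2 (0.222) or -GFs replicate 2 (0.157). With the block 3 of 6 passed, and the median of the paralogs was 0.12. TOB1 had -0.52 (adjusted p = 0.212, or 0.0152 with the block) and BTG3 0.40 (adjusted p = 0.328, or 0.0772 with the block). BTG3 entered the test through the FGF2 arrays alone.

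A list of 23 mRNAs reported as targets of ZFP36 proteins had 16 genes tested, of which 7 were called higher with FGF2 and 0 lower, where 2.28% of all genes were called higher, with a median log2 difference of 0.64 (0.59 with genes known only as a bound at that bound). IER3 is one of the 7 and is counted here as well. LIF, also one of the 7, entered the test through the FGF2 arrays alone, as did BCL2 and MYC. Their places in the counts are therefore not independent of a rise with FGF2. The list was also chosen with earlier results of these data known, so its share is a description and not a test. Restricted to genes detected on all 6 arrays, 5 targets were called. The chemokine genes CCL2 (2.26, adjusted p = 0.0187) and CCL7 (1.44, adjusted p = 0.0185) rose, as did FOS (1.61, adjusted p = 0.0920), the kinase gene PLK3 (1.32, adjusted p = 0.0101) and VEGFA (1.29, adjusted p = 0.0115). LIF, a cytokine, was undetected in -GFs medium and at least 2.31-fold higher with FGF2 (adjusted p = 0.0147). CCND1 (0.71, adjusted p = 0.0737) and BCL2 (at least 1.10-fold, undetected in -GFs medium, adjusted p = 0.0934) passed the adjusted p and not the fold, so that 9 of 16 passed it (12 with the block). CCND1 kept this without -GFs replicate 1 alone, and BCL2 without either BMP4 array, and neither passed with any other array left out. CDKN1A (0.019), CXCL1 (0.10) and PLK2 (-0.12) did not pass. TNF, IL1B, CXCL2, PTGS2 and DLL4 were undetected on all arrays, and IL6 and CSF2 were detected on 1. The count of 7 fell to 5 without FGF2 replicate 1, when VEGFA and FOS were not called, and to 2 without FGF2 replicate 2, when CCL2, CCL7, LIF, FOS and PLK3 were not called. FOS was not called without either -GFs array. These are levels of mRNA, and decay rates were not measured.

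Of 18 other immediate early genes, 15 were tested and 8 were called higher with FGF2, where 2.28% of all genes were, with a median of 1.24 (1.09 with CYR61 at its bound). The zinc finger genes EGR1 (4.19), EGR2 (4.13) and EGR3 (3.43) rose, as did the ERK phosphatase gene DUSP6 (3.55), the AP-1 genes JUNB (2.08), FOS (1.61) and JUN (1.24), and CYR61, undetected in -GFs medium and at least 2.13-fold higher (adjusted p from 0.0011 for EGR2 to 0.0920 for FOS). SRF, which encodes serum response factor, had 0.99 (adjusted p = 0.121, or 0.000320 with the block). FOSB had -0.48 and passed with the block alone (adjusted p = 0.175, or 0.0217 with the block). NR4A2 (-0.048) did not pass, and NR4A1 and ATF3 were undetected. At the adjusted p whatever the fold 8 passed, or 13 with the block, among them FOSB as a fall. The count of calls was 4 without FGF2 replicate 1, when FOS, JUN, JUNB and CYR61 were lost, and 4 without FGF2 replicate 2, when the same genes were lost. It was 6 without -GFs replicate 1, when FOS and JUN were lost, which also lost their calls without -GFs replicate 2. FOS, MYC and DUSP1 stand in both this list and that of ZFP36 targets. The probes that stand for CYR61 and MYC passed the detection filter through the FGF2 arrays alone, so that their entry is not independent of a rise. Restricted to genes detected on all 6 arrays, 5 genes of this list were called. This list too was chosen with earlier results of these data known, and its share is a description only.

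Since BTG2 and the paralog PHLDA3 are known p53 targets, 18 p53 target genes were looked at, of which 12 were tested. With FGF2 1 was called, where 3.53% of all genes tested were called and 148 of the 11872 were called lower. It was SESN1, a stress-inducible sestrin, which fell by 1.50 on the log2 scale (adjusted p = 0.0261). Its call was lost without FGF2 replicate 1 (-1.66, adjusted p = 0.124) or replicate 2 (-1.33, adjusted p = 0.203). FAS, a death receptor, fell by 0.997 on the log2 scale (adjusted p = 0.0332) and stayed just inside the fold threshold. It went past that threshold without -GFs replicate 2 (-1.09) or FGF2 replicate 2 (-1.22). It no longer passed the adjusted p without FGF2 replicate 1 (-0.78), FGF2 replicate 2 or -GFs replicate 1 (-0.91). TRP53INP1 had -1.43 (adjusted p = 0.161) and was called with the block (adjusted p = 1.09e-06), when 2 genes were called and 5 passed the adjusted p. Over all 11872 genes, 469 were called with the block and 37.7% passed the adjusted p. CDKN1A (0.019) and MDM2 (0.0045) did not pass, and the median of the list was -0.066.

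In BMP4 against -GFs 0 genes of any of these 7 lists were called or passed the adjusted p, with or without the block, and the list medians lay between -0.15 and 0.024. As a scale, the largest rise with BMP4 was that of ID1, a BMP target gene (2.77), and the largest fall that of MRGPRF (-1.22, adjusted p = 0.999).

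**Figure D4:**
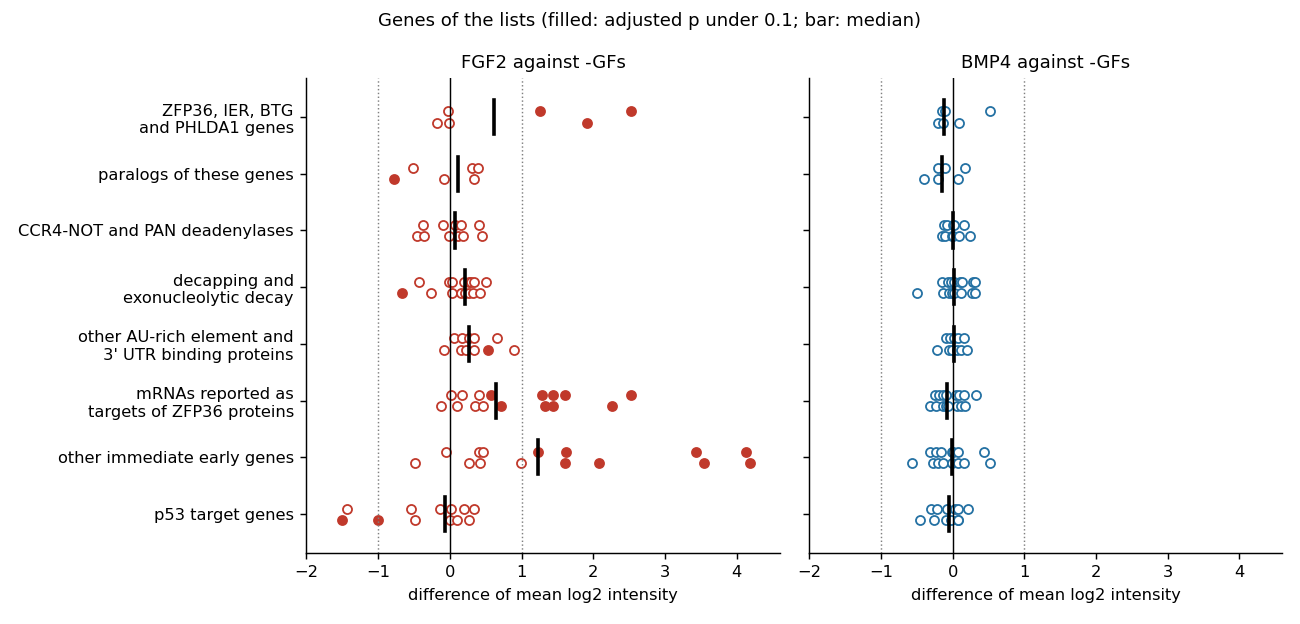
Log2 difference of every tested gene of the 8 lists with FGF2 (left) and BMP4 (right) against -GFs, filled where the adjusted p was under 0.1, with a bar at the median. With FGF2 the medians of the ZFP36 targets (0.64) and of the other immediate early genes (1.24) stand to the right of those of the decay machinery, and with BMP4 no point is filled.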

How the data were processed

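The microarray values that the authors deposited are intensities on a linear scale, averaged over the beads that carry a probe and not normalized between arrays, with detection p-values for each probe. Per the labels, GenomeStudio 2011.01 was used. The table also has 9 unheaded columns of values (on 2045 lines) and 6 leftover lines, none of which was used. The cubic spline normalization of the study's methods was re-implemented here in R 4.3.3 (452 quantiles per array), and values were converted to log2. A probe was kept if its detection p was under 0.05 on every array of 1 group or more (16111 probes), and the probe with the largest mean stood for its gene (11872 genes). All 6 arrays were fitted together with limma 3.58.1 (lmFit and eBayes, 3 residual degrees of freedom, no block). Adjusted p-values are limma's, adjusted after Benjamini and Hochberg for all 11872 genes, or all probes where probes are named. Where neither array of a group detected a probe, its level there is a bound. For a fold, each such array then counted as its dimmest detected probe, or as its own value if that was brighter. The procedure was tested on simulated data.

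The labels tie the replicate numbers to sets of wells. Arrays with the same number deviated together from their group means (over genes, the deviations of -GFs correlated with those of FGF2 by 0.602 and with those of BMP4 by 0.741, and those of both factors by 0.579), so that a fit with the number as a block was run as an alternative. The p-values rest on the spread between these 2 arrays per group, whose number limits the precision. In limma the eBayes step also draws each gene's spread towards that of all genes, so its p-values do not measure a gene's own spread alone. With the block, which leaves 2 residual degrees of freedom, the standard errors of the 6 genes were nearly equal (0.140 to 0.151). Adjusted p-values with the block therefore lean on a spread shared between genes. With 2 against 2 arrays, the smallest two-sided p of an exact permutation test is 0.333.

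The genes, the gene lists and the motifs were chosen with earlier results of these data known. Named are the 9 genes with every probe, each list gene called or past the adjusted p with at most 3 examples of the others (besides genes named for their lack of detection), the largest changes as a scale, and the 2 closest neighbours of each gene tested. Array names are partly old and were matched through RefSeq symbols and synonyms. BRF1 and BRF2, synonyms of ZFP36L1 and ZFP36L2 but also current symbols of other genes, were not counted. FOSL1 was not matched.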

Additional observations from a re-analysis of the deposited data

How the results depend on the processing

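ZFP36 lost its call with FGF2 whichever FGF2 array was left out, and PHLDA1 lost its call against -GFs without FGF2 replicate 2. Such fits leave 1 FGF2 array, and in both comparisons with FGF2 fewer of all genes were then called too. A lost call is therefore not particular to these genes. IER3 kept its call in every limma alternative tried. The number of the 9 genes called was 3 for FGF2 against -GFs and for FGF2 against BMP4, and 0 for BMP4 against -GFs. With single arrays left out it was 1 to 3, 1 to 3 and 0 to 0. The unpaired t-test, which the study did not name for its arrays, called 0 in each comparison after Benjamini-Hochberg adjustment. At an unadjusted p under 0.05 it called 3, 3 and 0. Blocking on the replicate number left the counts at 3, 3 and 0, and the block changed no other call of the 9 genes. Over all genes, 419 calls with FGF2 became 469 with the block, 794 with neqc and 1143 with both, and the 365 calls of FGF2 against BMP4 became 417, 640 and 987. With BMP4, 1 call became 10 with the block.

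Of 363 alternative values of single genes, 332 kept direction and side of the threshold, 15 lost a call (beside the results, or in the t-test) and 16 changed sign, none of them called. For FGF2 against -GFs these were BTG1 at 0.25 without -GFs replicate 2 and 0.39 without FGF2 replicate 1 (range with single arrays left out -0.43 to 0.39), and ZFP36L1 at 0.086 without -GFs replicate 1 and 0.032 without FGF2 replicate 1 (-0.10 to 0.086). For BMP4 against -GFs, without -GFs replicate 2, they were BTG1 at 0.12 (-0.42 to 0.12), IER3 at 0.056 (-0.33 to 0.056) and ZFP36 at 0.021 (-0.43 to 0.021), with BTG1 at 0.098 without BMP4 replicate 1 and ZFP36L1 at 0.070 for its dim probe. For FGF2 against BMP4, BTG1 was at -0.036 with the mean of the probes, -0.28 without FGF2 replicate 2, -0.12 without BMP4 replicate 1 (-0.28 to 0.54) and -0.20 for its second probe, and ZFP36L1 at -0.088 with the mean of the probes, -0.32 for its dim probe and -0.051 for its second probe. The cause was not tested.

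Counts of the lists were recomputed by alternatives chosen after seeing the data. The t-test after adjustment called 0 in each list. With single arrays left out, the ZFP36 targets called numbered 2 to 7, the other immediate early genes 4 to 8 and the p53 targets 0 to 2. Restricted to genes detected on all 6 arrays, 5 of the immediate early genes were called, because fewer genes were tested. The p53 targets called numbered 2 with neqc, with median scaling or with the block, and 3 with neqc and the block.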
